A study of Mus musculus with 9 samples.

Results

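The genes described here encode 2 subunits of Ca2+/calmodulin-dependent protein kinase II (CaMKII) and 7 scaffold proteins of the postsynaptic density. They are Camk2a, Camk2b, Dlg4, Shank1, Shank2, Shank3, Homer1, Dlgap1 and Baiap2. They were taken by name as 9 of the 48709 genes in the exon count files, with earlier results of these data known. RNA was sequenced from neuronal (NeuN-stained, sorted) nuclei of the hippocampus of 9 mice in 3 groups of 3, all 6 months old. Wild-type C57BL/6J mice drank plain tap water (vehicle-treated WT). Homozygous Tg4-42 mice, in which the neuronal murine Thy1 promoter drives human Aβ4-42 fused to the signal peptide of murine thyrotropin-releasing hormone on C57BL/6J, drank either tap water (vehicle-treated Tg4-42) or water with caffeine at 300 mg/l from 2 months of age for 4 months (caffeine-treated Tg4-42). The sample labels give the genotype as APP Transgenic and name a treatment for the caffeine group only, so that the vehicle of the other groups follows the study's description. The labels speak of nuclei from 6 mice in a group, whereas 3 libraries per group were analysed here, each titled with its own animal number.

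CaMKII is a multi-subunit kinase that Ca2+-bound calmodulin switches on, and in hippocampal spines it is needed for the long-term potentiation of excitatory synapses. The postsynaptic density lies under the synaptic membrane as a layered scaffold: PSD-95 (Dlg4) holds receptors at the membrane, SAPAP1 (Dlgap1) binds it from below, SHANK proteins bind SAPAP1, and Homer and IRSp53 (Baiap2) tie the SHANK layer to metabotropic receptors and to actin. The reads came from nuclei, so nuclear RNA over exons was measured, and RNA in dendrites was not.

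The libraries held 9342945 to 16376922 counts, and all 9 genes passed the filter on low counts that 17361 genes passed. The lowest count of any of them in a library was 137 (Shank3) and the highest 12656 (Dlgap1). By mean level they lay between the 48.8th (Shank3) and 99.5th percentile (Dlgap1) of the genes tested. Values are CPM, counts relative to the library total after scaling by trimmed-mean factors (TMM). Counts of Thy1 and Trh, whose promoter and signal peptide the transgene carries, followed the genotype: Thy1 was 82.1 to 88.8 CPM in the WT mice and 461 to 670 CPM in the transgenic mice, and Trh was 1.81 to 4.39 against 48.0 to 64.7 CPM. Rbfox3, which encodes the sorted antigen NeuN, was 89.3 to 116 CPM in WT, 99.6 to 117 CPM in vehicle-treated and 126 to 148 CPM in caffeine-treated Tg4-42 mice, highest in the caffeine group without overlap. The 5 neuronal markers, Rbfox3 included, summed to 6609 to 7196, 6396 to 7931 and 5501 to 6646 CPM in the same order. Non-neuronal RNA was present: 6 astrocyte markers summed to 303 to 408, 296 to 415 and 276 to 349 CPM. Sums of 6 oligodendrocyte markers were 326 to 481, 362 to 508 and 253 to 362 CPM. Those of 6 microglial markers were 24.2 to 34.3, 28.4 to 38.8 and 22.3 to 27.8 CPM, and 4 endothelial markers summed to at most 1.29 CPM. Fewer cells of a type and less RNA per nucleus cannot be told apart in these bulk libraries.

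Of the 9 genes, 6 matched RefSeq promoter windows (10 windows, GRCm38.p6), and Camk2a, Shank1 and Shank2 had none. The 250 bases upstream of the start were searched on both strands for TGACG, the core of the cAMP response element, and for GGGCGG, the GC box. TGACG occurred in 2 of the 10 windows (1 of Dlg4 and 1 of Homer1) and in 17.8% of all 32851 windows, and GGGCGG in 4 of the 10 (Camk2b, Dlg4, Shank3 and Baiap2) and in 32.7% of all. The TATA box TATAAA occurred in 1 of the 10 windows (Baiap2), against 12.4% of all. The full cAMP response element occurred in 0 of the 10, against 1.55% of all. Windows of 2 genes are printed because these genes had the largest group difference (Camk2b) and the largest spread between mice (Homer1) of the 9. Capitals mark TGACG and GGGCGG on either strand, and each sequence is written in the direction of transcription from 5′ to 3′. A match describes the letters and not a bound site.
Camk2b, chr11:6065749-6065998, minus strand: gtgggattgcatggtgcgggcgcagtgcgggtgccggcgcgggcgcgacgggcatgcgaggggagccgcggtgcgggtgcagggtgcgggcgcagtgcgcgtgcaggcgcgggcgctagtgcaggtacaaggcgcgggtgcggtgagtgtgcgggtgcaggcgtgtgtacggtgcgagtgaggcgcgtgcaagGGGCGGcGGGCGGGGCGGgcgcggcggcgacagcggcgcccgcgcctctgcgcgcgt
Homer1, first of 2 windows, chr13:93303507-93303756, plus strand: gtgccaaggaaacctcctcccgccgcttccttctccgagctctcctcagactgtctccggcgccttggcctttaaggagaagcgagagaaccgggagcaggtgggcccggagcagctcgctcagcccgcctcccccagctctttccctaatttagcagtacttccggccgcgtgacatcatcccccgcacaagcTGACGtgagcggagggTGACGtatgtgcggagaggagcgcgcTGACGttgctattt
The Camk2b window was 78.4% G and C and held 3 GC boxes, as 8.47% of all windows did with 3 or more. The printed Homer1 window was 62.4% G and C and held TGACG 3 times, a number reached or passed by 0.688% of all windows. The other Homer1 window, at chr13:93307784-93308033, was 46.8% G and C and held TGACG 0 times.

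Per kilobase of exon, the 9 genes spanned a wide range of levels. The length used is that of all annotated exons of a gene merged, for Dlg4 13251 bases from 22 transcripts. It can exceed the length of the RNA present, so ranks and shares between genes depend on the annotation. Baiap2 had the highest mean over the 9 libraries (73.7 ± 9.29 CPM per kb, SD), followed by Camk2b (66.3 ± 16.2), Dlgap1 (43.8 ± 4.65) and Camk2a (39.1 ± 4.46). Homer1 (12.2 ± 3.84), Shank1 (7.98 ± 1.28) and Shank2 (6.54 ± 0.858) came next, and Shank3 (1.94 ± 0.210) and Dlg4 (1.90 ± 0.216) were last on this scale. The ranges of neighbours in this order overlapped except between Camk2a and Homer1 and between Shank2 and Shank3. Within libraries the order was steadier: Camk2b exceeded Dlgap1, Dlgap1 exceeded Camk2a, and Shank1 exceeded Shank2 in 9 of 9 libraries, whereas Baiap2 exceeded Camk2b in 7 and Shank3 exceeded Dlg4 in 6.

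In mm10 coordinates with GENCODE M21 gene models, Camk2a (ENSMUSG00000024617) lies at chr18:60925618-60988152 on the plus strand and Camk2b (ENSMUSG00000057897) at chr11:5969644-6066362 on the minus strand. The other genes lie on the plus strand: Dlg4 (ENSMUSG00000020886) at chr11:70016942-70047522, Shank1 (ENSMUSG00000038738) at chr7:44310253-44360572, Shank2 (ENSMUSG00000037541) at chr7:144001928-144424494 and Shank3 (ENSMUSG00000022623) at chr15:89499623-89560261. Homer1 (ENSMUSG00000007617) is at chr13:93299635-93405129, Dlgap1 (ENSMUSG00000003279) at chr17:69969073-70821413 and Baiap2 (ENSMUSG00000025372) at chr11:119942763-120006782. Exons of Shank1 and Shank3 overlap opposite-strand genes over 339 and 271 bases (3.22% and 2.95% of the exon length of each), and the strand setting of the counting is not given in the sources used here. The overlapping genes, 1700008O03Rik and Gm15609, had 40 to 76 and 30 to 68 counts per library.

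Summed, the 9 genes took 0.204% to 0.286% of the scaled counts. The sum was 2099, 2213 and 2422 CPM in vehicle-treated WT, 2313, 2273 and 2037 CPM in vehicle-treated Tg4-42, and 2843, 2456 and 2861 CPM in caffeine-treated Tg4-42 mice. The 3 caffeine-treated mice lay above all 6 vehicle-treated mice, and vehicle-treated WT and Tg4-42 mice overlapped. Camk2b, Dlgap1 and Baiap2 are the largest terms of this sum.

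**Figure D1:**
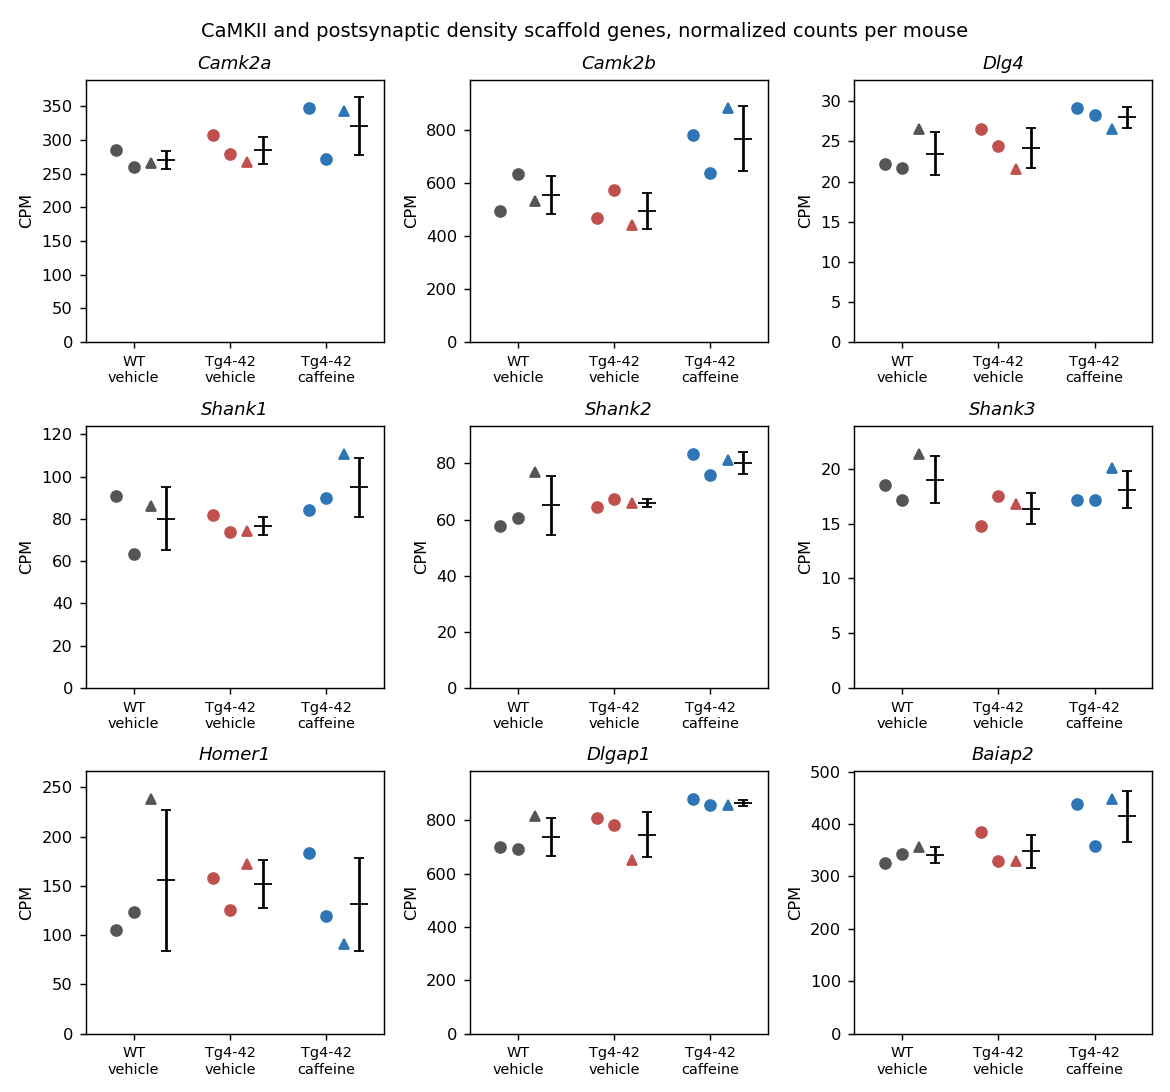
TMM-scaled CPM (y axis, from 0, scaled to each gene) of the 9 genes in each mouse, by group. Circles are libraries of lane 6 and triangles of lane 7; bars are the mean ± SD of 3 mice. Camk2b is higher in each caffeine-treated mouse (636.8 to 883.0 CPM) than in any vehicle-treated mouse, and Homer1 varies from 90.6 to 237.7 CPM.

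The effect of the transgene was asked by comparing vehicle-treated Tg4-42 with vehicle-treated WT mice, and no difference was detected for any of the 9 genes. In edgeR's quasi-likelihood test, 0 of 9 passed an adjusted p of 0.05 (Benjamini-Hochberg over all genes tested), against 0.0979% of all genes, and the adjusted p was 1.00 for each. At an unadjusted p under 0.05, 0 of 9 were higher (1.65% of all genes) and 0 of 9 lower (1.09%); DESeq2 also called 0, against 0.150% of all genes. The groups overlapped for all 9 genes, while 3.57% of all genes were higher and 3.16% lower in Tg4-42 without overlap. The log2 fold changes ran from -0.21 (Shank3, 95% interval -0.55 to 0.13) to 0.07 (Camk2a, -0.19 to 0.34), with 5 of 9 above 0 and a median of 0.02, beside 0.00 over all genes. The interval was widest for Homer1, from -0.80 to 0.73.

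The effect of caffeine was asked by comparing caffeine- with vehicle-treated Tg4-42 mice. Camk2b, the β subunit that binds F-actin and holds the kinase in spines, had the largest difference of the 9 genes, 1.55-fold higher with caffeine, but its adjusted p of 0.0639 (edgeR, Benjamini-Hochberg) missed the threshold. Of the others, 7 had a log2 fold change between 0.14 and 0.31, and Homer1 had -0.21. In all, 0 of 9 genes passed an adjusted p of 0.05 in edgeR, against 0.881% of all genes. At an unadjusted p under 0.05, 2 of 9 were higher (Camk2b and Shank2), against 7.15% of all genes, and 0 were lower, against 9.82%. DESeq2 called 1 of 9, Camk2b, and 4.41% of all genes. The median log2 fold change of the 9 genes was 0.21 (8 of 9 above 0) beside -0.01 over all genes. For Camk2b, Dlg4, Shank1, Shank2 and Dlgap1, each caffeine-treated mouse exceeded each vehicle-treated Tg4-42 mouse, where 10.4% of all genes did so, and for none of the 9 was the reverse true (12.6% of all genes).

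The third comparison set caffeine-treated Tg4-42 against vehicle-treated WT mice, which differ in both genotype and treatment, and uses the same caffeine-treated mice as above. Again 0 of 9 genes passed the adjusted threshold in edgeR (0.415% of all genes), and DESeq2 called 0 (3.27% of all genes). At an unadjusted p under 0.05, 3 were higher (Camk2b, Shank2 and Baiap2; 6.78% of all genes) and 0 lower (8.65%). Camk2b, Dlgap1 and Baiap2 were higher without overlap (9.14% of all genes), and 0 were lower without overlap (9.67%). The median log2 fold change was 0.25, with 7 of 9 above 0, beside -0.01 over all genes.

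**Figure D2:**
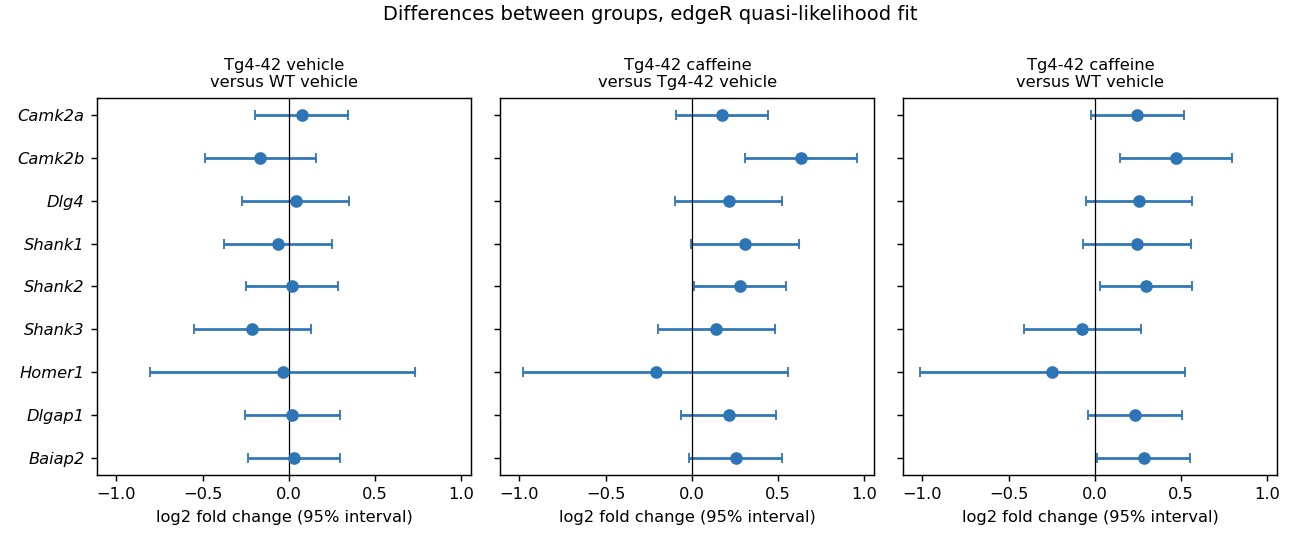
Log2 fold changes (x axis) of the 9 genes (y axis) in the 3 comparisons; points are edgeR estimates and bars 95% intervals from 3 mice per group. For Camk2b the intervals with caffeine lie above 0 (0.31 to 0.96 against vehicle-treated Tg4-42), and Homer1 has the widest interval in each panel.

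Camk2b was measured at 494.6, 633.7 and 533.4 CPM in the 3 vehicle-treated WT mice, at 469.6, 572.3 and 440.2 CPM in the vehicle-treated Tg4-42 mice, and at 781.3, 636.8 and 883.0 CPM in the caffeine-treated Tg4-42 mice. The caffeine-treated mice lay above all others, the lowest of them close to the highest WT mouse. The group means were 554 ± 71.8, 494 ± 69.4 and 767 ± 124 CPM (SD, n = 3). Against vehicle-treated Tg4-42 the log2 fold change was 0.63 ± 0.15 (SE) in edgeR (adjusted p = 0.0639), and against WT it was 0.47 ± 0.15 (adjusted p = 0.160). Without vehicle-treated Tg4-42 mouse 2 the former was 0.76 with an adjusted p of 0.0469, and leaving out any other single mouse gave an adjusted p above 0.05. DESeq2 gave 0.65 with an adjusted p of 0.00337. Each group had 2 libraries on sequencing lane 6 and 1 on lane 7, and the ratio of caffeine to vehicle in Tg4-42 mice was 1.36 within lane 6 and 2.01 between the single mice of lane 7. In edgeR the lane 6 libraries alone gave a log2 fold change of 0.46 with an adjusted p of 0.868.

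Camk2a, the α subunit, abundant in forebrain excitatory neurons, had a smaller difference. It was at 284.9, 259.7 and 265.7 CPM in WT, 306.7, 279.1 and 267.3 CPM in vehicle-treated Tg4-42, and 347.4, 271.4 and 342.9 CPM in caffeine-treated Tg4-42 mice. The second caffeine-treated mouse lay within the range of the vehicle-treated mice, and the groups overlapped in each comparison. The log2 fold change with caffeine in Tg4-42 mice was 0.17 ± 0.13 (edgeR, adjusted p = 0.519).

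The number of Camk2b counts for each Camk2a count compares both subunits inside a library, free of its scaling. It was 1.74, 2.44 and 2.01 in WT, 1.53, 2.05 and 1.65 in vehicle-treated Tg4-42, and 2.25, 2.35 and 2.58 in caffeine-treated Tg4-42 mice. The caffeine-treated mice lay above all vehicle-treated Tg4-42 mice but overlapped with WT. The difference against vehicle-treated Tg4-42 (log2 0.46) had an exact two-sided permutation p of 0.1, the smallest that 3 against 3 mice allow. It was 0.5 after adjustment over 15 such tests of ratios. Per kilobase of exon, Camk2b made up 53.0% ± 4.21 of the RNA of the 4 CaMKII genes in WT, 49.6% ± 4.59 in vehicle-treated and 58.4% ± 2.41 in caffeine-treated Tg4-42 mice (SD, n = 3). Camk2d, the δ subunit, made up 6.90% ± 1.69, 7.25% ± 1.60 and 4.11% ± 1.34 in the same order, and Camk2g, the γ subunit, 8.27%, 8.22% and 7.54%.

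Markers of dentate granule cells were higher in each caffeine-treated mouse than in any vehicle-treated mouse, as Camk2b was. The 14 markers summed to 1170, 1411 and 1075 CPM in WT, 1367, 1457 and 898 CPM in vehicle-treated Tg4-42, and 1811, 1682 and 2073 CPM in caffeine-treated Tg4-42 mice. In all 3 groups the mouse with the highest Camk2b also had the highest sum, and in both Tg4-42 groups the mouse with the lowest Camk2b had the lowest sum. The log2 fold change with caffeine in Tg4-42 mice was above 0 for all 14 markers (median 0.69), and 3 of them were called by edgeR (0.881% of all genes). It was below 0 for all 10 interneuron markers (median -0.48, 1 called), with sums of 1292 to 1492, 1325 to 1907 and 1006 to 1274 CPM in WT, vehicle-treated and caffeine-treated Tg4-42 mice. Sums of the 8 CA1 markers measured were 674 to 1030, 718 to 862 and 537 to 773 CPM, and those of 9 CA3 and CA2 markers 299 to 358, 299 to 367 and 339 to 403 CPM. It was also below 0 for 6 of 6 oligodendrocyte, 6 of 6 microglial and 5 of 6 astrocyte markers, 0 of them called. Calls were 0 of 14 granule and 0 of 10 interneuron markers within lane 6, without vehicle-treated Tg4-42 mouse 3 and without caffeine-treated mouse 3. In these settings 0 of all genes tested were called. They were also 0 and 0 with lane as a covariate (9 of all genes) and without vehicle-treated Tg4-42 mouse 1 (3 of all genes). With DESeq2 and with edgeR's likelihood ratio test they were 7 and 2 (765 and 669 of all genes). Without the filter on low counts they were 11 and 5 (987 of all genes). The part of cell composition in the differences of Camk2b and the scaffold genes was not tested.

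**Figure D3:**
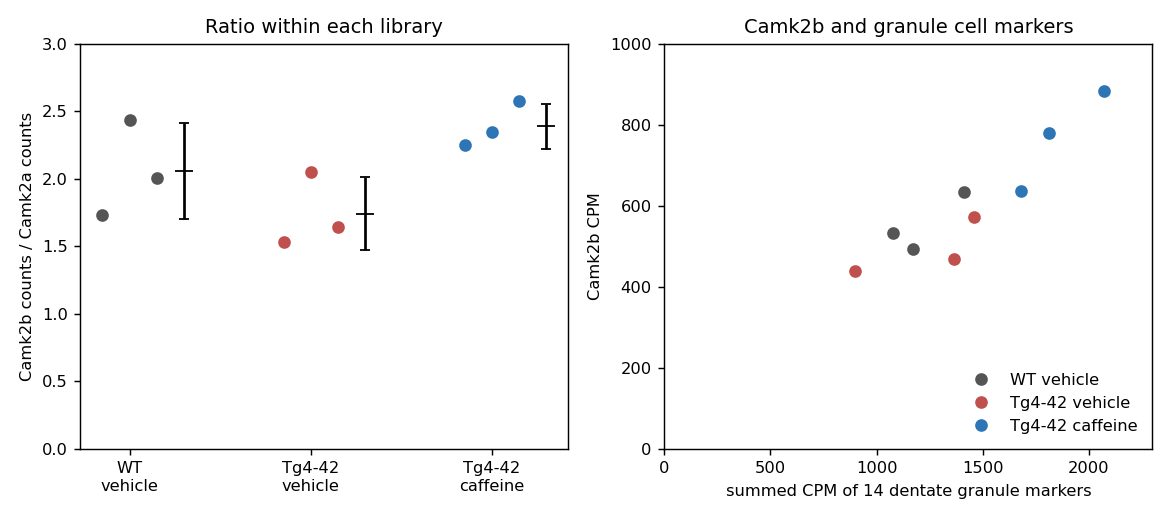
Left, Camk2b counts divided by Camk2a counts (y axis, from 0) in each mouse, with mean ± SD of 3 mice. Right, Camk2b CPM (y axis) against the summed CPM of 14 dentate granule cell markers (x axis), 1 point per mouse: the 3 caffeine-treated mice are highest on both axes.

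Dlg4 encodes PSD-95, the main scaffold that holds glutamate receptors at the membrane. It was at 22.2, 21.7 and 26.6 CPM in WT, 26.5, 24.4 and 21.6 CPM in vehicle-treated Tg4-42, and 29.2, 28.3 and 26.5 CPM in caffeine-treated Tg4-42 mice. The lowest caffeine-treated mouse stood barely above the highest vehicle-treated Tg4-42 mouse and just below the highest WT mouse. The log2 fold change with caffeine in Tg4-42 mice was 0.21 ± 0.15 (edgeR, adjusted p = 0.490). Among the 4 PSD-95 family genes Dlg4 made up 2.72%, 2.62% and 3.42% of the RNA per kilobase of merged exons in the 3 groups. Dlg2 (PSD-93) had the largest share, 36.4% to 42.5% by group. These shares depend on the annotated exon lengths.

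Dlgap1 (SAPAP1), which links PSD-95 to SHANK, had the highest mean CPM of the 9 genes in each group. In the third caffeine-treated mouse Camk2b was higher (883.0 against 859.1 CPM). Dlgap1 was at 699, 692 and 818 CPM in WT, 807, 783 and 650 CPM in vehicle-treated Tg4-42, and 879, 859 and 859 CPM in caffeine-treated Tg4-42 mice. The caffeine-treated mice lay close together and above all 6 others. The log2 fold change was 0.21 ± 0.13 against vehicle-treated Tg4-42 (edgeR, adjusted p = 0.429) and 0.23 ± 0.13 against WT (adjusted p = 0.406). The ratio of Dlgap1 to Dlg4 counts was 30.1 to 32.4 in the 9 libraries, a coefficient of variation of 2.89%. Dlg4 had 245 to 411 counts per library, and counting error alone is 5.01% to 6.49% of this ratio (Poisson), so that no difference between libraries was detectable in it at this depth.

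The SHANK genes encode the master scaffolds that bridge SAPAP1 to Homer and cortactin. Shank1 was at 91.0, 63.3 and 86.1 CPM in WT, 81.7, 73.7 and 74.4 CPM in vehicle-treated Tg4-42, and 84.0, 89.9 and 110.9 CPM in caffeine-treated Tg4-42 mice. Caffeine-treated and vehicle-treated Tg4-42 mice did not overlap, but both overlapped with WT, and the log2 fold change with caffeine was 0.31 ± 0.15 (edgeR, adjusted p = 0.302). Shank2 was at 57.7, 60.6 and 77.1 CPM in WT, 64.5, 67.4 and 66.0 CPM in vehicle-treated Tg4-42, and 83.5, 75.8 and 81.2 CPM in caffeine-treated Tg4-42 mice. Vehicle-treated Tg4-42 mice were tightly grouped below the caffeine-treated mice, with a log2 fold change of 0.28 ± 0.13 (edgeR, adjusted p = 0.273). Shank3 was at 18.5, 17.2 and 21.4 CPM in WT, 14.8, 17.5 and 16.8 CPM in vehicle-treated Tg4-42, and 17.1, 17.1 and 20.1 CPM in caffeine-treated Tg4-42 mice, with overlap throughout.

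Within the SHANK family, Shank1 made up 48.3%, 47.9% and 48.8% of the RNA per kilobase in WT, vehicle-treated and caffeine-treated Tg4-42 mice, and Shank2 38.5%, 40.3% and 40.5%. Shank3 made up 13.2% ± 0.634, 11.7% ± 1.09 and 10.7% ± 0.0952 (SD, n = 3). The ratio of Shank2 to Shank3 counts was 3.12, 3.53 and 3.60 in WT, 4.35, 3.85 and 3.93 in vehicle-treated Tg4-42, and 4.88, 4.42 and 4.05 in caffeine-treated Tg4-42 mice. Both Tg4-42 groups lay above WT without overlap and overlapped with each other. The exact two-sided permutation p was 0.1 for each against WT, the smallest possible, and 0.5 after adjustment over 15 tests of ratios.

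Homer1, whose long products cross-link SHANK and metabotropic receptors and whose short activity-induced product Homer1a uncouples them, varied most between mice. It was at 105.7, 123.0 and 237.7 CPM in WT, 157.8, 125.1 and 172.3 CPM in vehicle-treated Tg4-42, and 183.1, 119.8 and 90.6 CPM in caffeine-treated Tg4-42 mice. The highest and the lowest libraries were the third WT mouse and the third caffeine-treated mouse, both on lane 7, and all groups overlapped. Its fitted biological coefficient of variation was 28.6%, at the 86.9th percentile of the genes tested, against 11.4% to 13.9% for the other 8 genes. Without the third WT mouse the log2 fold change of vehicle-treated Tg4-42 against WT went from -0.04 to 0.40, and that of caffeine-treated Tg4-42 against WT from -0.25 to 0.20, uncalled in each case. Within lane 6 caffeine- against vehicle-treated Tg4-42 gave 0.11 in place of -0.21. The counts sum over long and short products, which were not separated here.

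The 2 genes most like Homer1 over the 9 libraries were Antxr1 (Pearson's r = 0.98) and Trib1 (r = 0.96), each also at its highest in the third WT mouse and at its lowest in the third caffeine-treated mouse. Both were picked for likeness over these same libraries, so the shared extremes add no support. Arc, an immediate early gene named here outside the rule after its values were seen, was at 197, 365 and 340 CPM in WT, 189, 252 and 299 CPM in vehicle-treated Tg4-42, and 344, 109 and 105 CPM in caffeine-treated Tg4-42 mice. Within the caffeine group Arc and Homer1 were both highest in the first mouse, and within vehicle-treated Tg4-42 both in the third. In WT Arc was highest in the second mouse and Homer1 in the third. Homer1 made up 61.7%, 61.4% and 52.4% of the RNA per kilobase of the Homer family in the 3 groups, and Homer3 17.0% ± 7.21, 18.5% ± 6.02 and 27.8% ± 11.1.

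Baiap2 encodes IRSp53, an I-BAR protein that joins SHANK and PSD-95 to Rac, Cdc42 and actin. It was at 325.0, 342.4 and 355.5 CPM in WT, 384.2, 330.2 and 328.9 CPM in vehicle-treated Tg4-42, and 438.9, 358.1 and 446.8 CPM in caffeine-treated Tg4-42 mice. The second caffeine-treated mouse was below the first vehicle-treated Tg4-42 mouse, but all 3 were above WT. The log2 fold change was 0.25 ± 0.13 against vehicle-treated Tg4-42 (edgeR, adjusted p = 0.325) and 0.28 ± 0.13 against WT (adjusted p = 0.299).

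Levels of the 9 genes other than Homer1 mostly varied in the same direction between libraries. Of the 36 pairs, 31 had a positive Pearson correlation of log2 CPM over the 9 libraries (median r = 0.53); without Homer1 it was 27 of 28 (median 0.58). Dlg4 and Dlgap1 were the closest pair (r = 0.97), then Camk2a and Baiap2 (r = 0.89). These points share group, scaling and nuclei preparation, and the values are descriptions of 9 libraries. Among all genes tested, those most like Camk2b were Pde1b (r = 0.99), a calmodulin-activated phosphodiesterase, and Rab40b (r = 0.98). For Camk2a they were Nhsl2 (0.96) and 4933415A04Rik (0.96), for Dlg4 Gm45743 (0.97) and Dlgap1 (0.97), and for Dlgap1 Gm38948 (0.97) and Rapgef4os2 (0.97). For Shank1 the most alike was Insr (0.99), the insulin receptor. They were for Shank2 Mapk14 (0.96) and Fbrsl1 (0.95), for Shank3 Smim14 (0.97) and Ddx55 (0.96), and for Baiap2 Klf13 (0.98) and Hipk4 (0.96). Each was picked as the highest among 17361 genes over only 9 libraries, so a high r follows from the choice. Mean levels were low for 4933415A04Rik (1.02 CPM), Gm45743 (2.01 CPM) and Gm38948 (0.577 CPM).

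**Figure D4:**
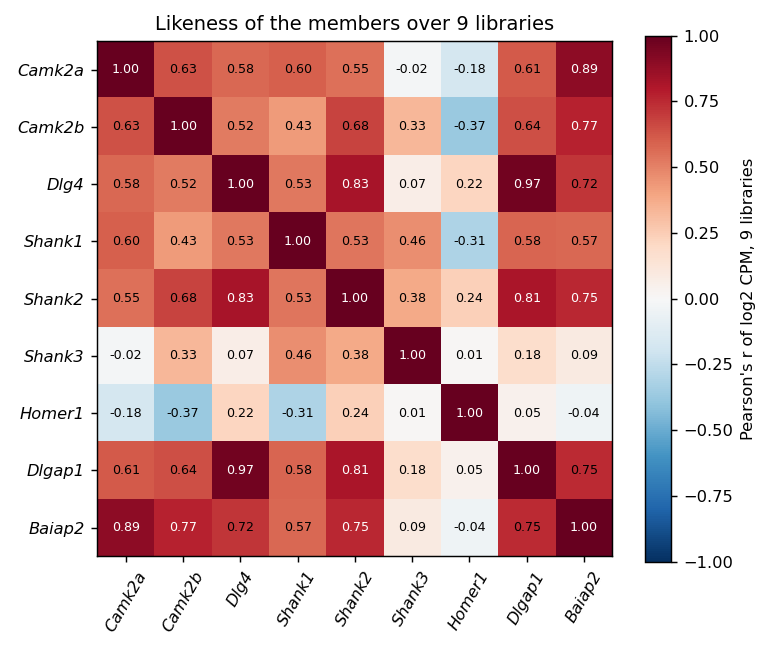
Pearson's r of log2 CPM over 9 libraries for each pair of the 9 genes (both axes list the genes; colour from -1 to 1). The Dlg4 and Dlgap1 cell is the highest off the diagonal (0.97), and Homer1 lies between -0.37 and 0.24 with the others.

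Other genes of the postsynaptic density were taken from 6 lists of 9 to 20 genes, each measured in full. In vehicle-treated Tg4-42 against WT 0 genes of the 6 lists were called by edgeR, and list medians of the log2 fold change ran from -0.15 (actin and spine proteins, 3 of 12 above 0) to 0.08 (other members of the same families, 8 of 12). With caffeine in Tg4-42 mice 3 of the 79 genes rose, each from a different list, and 0 fell, where 0.881% of all genes were called in either direction. Against WT 0 were called with caffeine, with medians from 0.05 to 0.19.

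Among calmodulin, CaMKII inhibitors and other CaM kinases, 1 of 12 genes rose with caffeine in Tg4-42 mice, 10 of 12 were above 0 and the median was 0.15. The gene that rose was Camk1d, a CaM kinase of the CaMKI branch, at 73.4 to 76.7 CPM in vehicle-treated and 108, 115 and 119 CPM in caffeine-treated Tg4-42 mice, with WT at 89.8, 93.5 and 76.9 CPM. Its log2 fold change was 0.61 ± 0.11 (edgeR, adjusted p = 0.0385). Of 14 regulators of small GTPases 1 rose, 11 were above 0 and the median was 0.24. It was Iqsec2, an Arf guanine nucleotide exchange factor, at 19.2, 19.9 and 18.2 CPM with vehicle and 31.9, 28.6 and 39.7 CPM with caffeine in Tg4-42 mice (log2 fold change 0.81 ± 0.17, edgeR, adjusted p = 0.0399). Of 12 actin and spine proteins 1 rose, 10 were above 0 and the median was 0.19. It was Wasf1 (WAVE1), which activates Arp2/3, at 161, 190 and 162 CPM with vehicle and 250, 233 and 290 CPM with caffeine in Tg4-42 mice (log2 fold change 0.59 ± 0.13, edgeR, adjusted p = 0.0497). WT was at 210, 239 and 187 CPM for Wasf1, overlapping both Tg4-42 groups, and vehicle-treated Tg4-42 had a log2 fold change of -0.31 against WT (edgeR, adjusted p = 1.00). For Iqsec2 WT was at 22.4, 17.9 and 24.6 CPM, below all caffeine-treated mice. All 3 genes separated vehicle- and caffeine-treated Tg4-42 mice without overlap, where 10.4% of all genes were higher with caffeine without overlap. They were named because they were called in this same comparison, so the separation adds no support. These calls depended on which mice were included. With single mice left out, the log2 fold change was 0.58 to 0.64 for Camk1d, 0.66 to 0.91 for Iqsec2 and 0.50 to 0.68 for Wasf1. All 3 were lost without vehicle-treated Tg4-42 mouse 1 (adjusted p = 0.0795 to 0.133), where 3 of all genes tested were called, without vehicle-treated mouse 3 (0.222 to 0.246) and without caffeine-treated mouse 3 (0.278 to 0.319), where 0 were called. Iqsec2 was also lost without vehicle-treated mouse 2 (adjusted p = 0.0507), and Camk1d and Wasf1 without caffeine-treated mouse 2 (0.0711 for both). All 3 were lost with lane as a covariate (0.0554 to 0.0718) and Wasf1 with the replicate number as a block (0.0508). DESeq2 called all 3 (adjusted p = 0.000110 to 0.00181), as did limma-voom with quality weights (0.0109 to 0.0210) and edgeR's likelihood ratio test (0.00107 to 0.00507). In edgeR they also passed without the filter on low counts (0.000495 to 0.00154), with the GC and length corrections, with thinning and without caffeine-treated mouse 1. The lane 6 libraries alone gave log2 fold changes of 0.59, 0.65 and 0.48 for Camk1d, Iqsec2 and Wasf1, uncalled, as were all genes tested (edgeR, 956 at an unadjusted p under 0.05).

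The other 3 lists held no call with caffeine. Of 12 other members of the CaMKII, PSD-95, SAPAP, Homer and IRSp53 families, 4 were above 0 and the median log2 fold change was -0.07, beside 0.21 for the 9 genes described here. Dlg2 was at 558, 459 and 431 CPM with vehicle and 379, 362 and 358 CPM with caffeine in Tg4-42 mice (log2 fold change -0.40 ± 0.15, edgeR, adjusted p = 0.182). Homer3 had its smallest p against WT, with 11.1, 14.1 and 7.95 CPM in WT and 13.2, 18.6 and 25.6 CPM with caffeine (log2 fold change 0.79 ± 0.27, edgeR, adjusted p = 0.185). Among 20 other scaffolds and adaptors 12 were above 0 (median 0.08), and those with the smallest p were Lin7b (0.51, adjusted p = 0.109) and Tanc1 (0.72, adjusted p = 0.115). Among 9 protein phosphatases 6 were above 0 (median 0.16), led by Ppm1e, which dephosphorylates CaM kinases (0.47, adjusted p = 0.0959), and Ppp3ca, the catalytic subunit of calcineurin (0.54, adjusted p = 0.101).

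**Figure D5:**
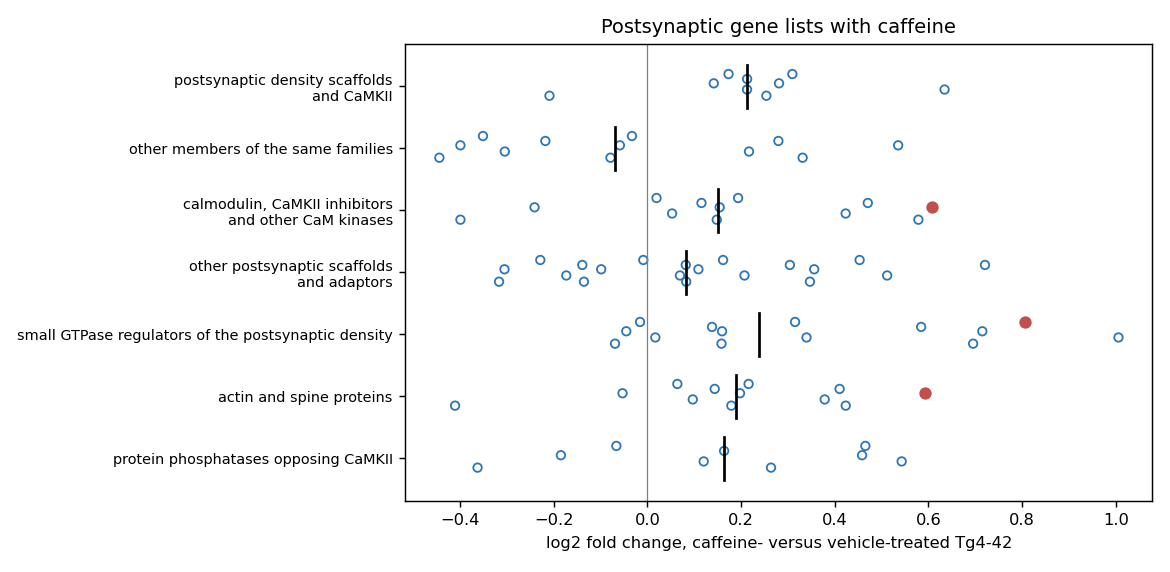
Log2 fold changes with caffeine in Tg4-42 mice (x axis) for the 9 genes and the 6 other postsynaptic lists (y axis); each point is a gene, black lines are list medians and filled points passed an adjusted p of 0.05 in edgeR. The 3 filled points are Camk1d, Iqsec2 and Wasf1.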

How the data were processed

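Exon counts of 9 libraries (3 mice per group) were used. The authors stained hippocampal nuclei for NeuN, sorted them, prepared libraries with SMART-Seq v4 and Nextera XT, sequenced single-end reads of 50 bases, aligned them to mm10 with STAR and counted reads per gene over exons with featureCounts; the deposited values are these raw counts per Ensembl gene, with no normalization. Versions and the strand setting are not given in the sources used here. Of 48709 Ensembl genes, 48349 had a symbol in GENCODE M21.

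Libraries were scaled by TMM, genes kept by filterByExpr (minimum count 10, minimum total 15), and edgeR 4.0.16 (R 4.3.3) fitted all 3 groups in 1 robust quasi-likelihood model, with Benjamini-Hochberg adjustment over 17361 genes and a threshold of 0.05. The study's tool, DESeq2 (1.42.0), limma-voom (limma 3.58.1), other scalings and filters, the sequencing lane and the replicate number were alternatives. Ratios were compared by exact permutation tests over mice. Scripts were checked on simulated counts. Totals ran from 9342945 to 16376922 counts, so that 3 counts were 0.19 to 0.325 CPM; this limit covers counting error only. Mice of a group differed beyond sampling noise (chi-square per gene 8.81 to 20.7), and the common biological coefficient of variation was 0.163.

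All 9 genes are named; from each other list, the called genes or else the 2 with the smallest p; for likeness, the 2 highest correlations, of which 1 for Shank1 is not reported here. The genes and lists were chosen with earlier results of these data known.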

Additional observations from a re-analysis of the deposited data

How the results depend on the processing

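Besides leaving out each mouse in turn, 13 alternatives were run for each comparison, 4 of them (correction for GC content, correction for exon length, thinning to the smallest library and edgeR's likelihood ratio test) chosen after the data were seen. The call of Camk2b with caffeine in Tg4-42 mice depends on the test, the filter, the GC correction and the mice included: its log2 fold change was 0.46 to 0.67 over the 13, and it passed in 5 of them, with DESeq2 (0.65, adjusted p = 0.00337), no filter on low counts (0.65, 0.000557), limma-voom with quality weights (0.62, 0.0300), the GC correction (0.67, 0.0318) and the likelihood ratio test (0.63, 0.00659). It did not pass within lane 6 (0.46, adjusted p = 0.868). With single mice left out it was 0.52 to 0.76, with an adjusted p of 0.0469 to 0.369, passing only without vehicle-treated Tg4-42 mouse 2. Against WT, Camk2b passed only without the filter (0.48, 0.0314). No other gene of the 9 was called under any alternative. The cause of these differences was not tested.

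Some signs turned, of uncalled differences. With single mice left out, the log2 fold change of vehicle-treated Tg4-42 against WT was -0.028 to 0.13 for Dlg4, -0.21 to 0.035 for Shank1, -0.062 to 0.15 for Shank2, -0.25 to 0.40 for Homer1, -0.040 to 0.10 for Dlgap1 and -0.049 to 0.063 for Baiap2. For caffeine-treated Tg4-42 against WT it was -0.15 to 0.025 for Shank3 and -0.56 to 0.20 for Homer1, the upper end of both and of Homer1 above being without WT mouse 3. Within lane 6 Homer1 was 0.29 for vehicle-treated Tg4-42 against WT, 0.11 for caffeine against vehicle in Tg4-42 and 0.41 for caffeine against WT. For vehicle-treated Tg4-42 against WT, Shank2 was -0.0060 under the GC correction, -0.0081 under the length correction and -0.0089 with thinning, and Dlgap1 was -0.025 under the length correction. Shank3 was -0.017 under the GC correction for caffeine against vehicle in Tg4-42. Shank1 kept its sign under the GC correction but fell from 0.31 to 0.17 in that comparison. For caffeine-treated Tg4-42 against WT it fell from 0.24 to 0.066.

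The number of all genes called moved more. For caffeine- against vehicle-treated Tg4-42 it was 153, but 765 with DESeq2, 987 without the filter, 9 with lane as a covariate, 0 within lane 6 (956 at an unadjusted p under 0.05), 587 with limma-voom, 286 with the GC correction, 669 with the likelihood ratio test and 0 to 341 with single mice left out. Against WT it was 72, but 568, 860, 42, 17, 125, 142, 499 and 16 to 287 in the same order. For vehicle-treated Tg4-42 against WT it was 17, but 26 with DESeq2, 74 without the filter and 31 with the likelihood ratio test, and 14 to 18 with single mice left out. The numbers 1 to 3 in the library names are not said to pair mice. Deviations of same-numbered mice correlated at 0.138 to 0.188 for vehicle-treated Tg4-42 and WT, where each mouse was most like the WT mouse of its number. For numbers 1 to 3 they correlated at 0.15, 0.18 and -0.17 for caffeine- and vehicle-treated Tg4-42. For caffeine-treated Tg4-42 and WT they correlated at -0.17, 0.0075 and -0.11. Because the caffeine comparisons differed in sign, the numbers were not used as pairs. With them as a replicate block 16, 187 and 82 genes were called for vehicle-treated Tg4-42 against WT, caffeine- against vehicle-treated Tg4-42 and caffeine against WT, and 0 of the 9 genes in each; the block changed no call of these 9.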
